A study of Homo sapiens with 18 samples.

Results

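Integrin subunits are described here from 18 RNA-seq libraries of IMR90 ER:RAS cells. The 10 genes ITGA1, ITGA2, ITGA3, ITGA5, ITGA11, ITGAV, ITGB1, ITGB3, ITGB5 and ITGB8 were listed by symbol, with earlier results of these data known. They are 10 of the 28266 gene rows of the count table and 10 of the 26 human integrin subunits, with 6 α and 4 β subunits, and all 10 passed the filter on low counts. IMR90 cells are fibroblasts of human lung, which the paper lists among its cell lines and used within a limited range of passages. All cells carried ER:RAS, a retrovirally introduced oncogenic RAS fusion that 4-hydroxytamoxifen (4OHT) switches on and that drives oncogene-induced senescence, and the labels give their genotype as WT. Senescent cells had received 100 nM 4OHT for 7 days and control cells DMSO. Cells of each state were then given IMP1088 at 300 nM, DDD86481 at 1.5 µM or DMSO for 3 days and collected on day 10. Both compounds are inhibitors of the N-myristoyltransferases (NMTi), enzymes that attach a myristoyl lipid to the N terminus of proteins. The 6 groups hold 3 libraries each. The labels do not say that replicates were separate cultures. For expression data with these inhibitors and doses, a legend of the paper gives n = 3 and states that n counts independent experiments. The p-values measure only the spread between these samples.

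Integrins are transmembrane receptors made of 1 α and 1 β subunit that connect the extracellular matrix with the actin cytoskeleton. The β1 subunit (ITGB1) is the common partner: with α1, α2 or α11 it forms collagen receptors, with α3 a laminin receptor and with α5 the main fibronectin receptor. αV pairs with β1, β3, β5 or β8, and these receptors bind RGD-containing ligands such as vitronectin and latent TGF-β, which αVβ8 is known to activate. In fibroblasts, integrins are known for adhesion to and remodelling of matrix.

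The libraries held 16143716 to 23189950 counts. The 10 fibroblast markers were above the floor of 3 counts in every library, and their summed level was 21890 to 29600 CPM (a count relative to the TMM-scaled size of its library) in control and 11470 to 16780 CPM in senescent libraries, where DCN was at 7.73 CPM against 3042 CPM in control cells with DMSO. Epithelial and leukocyte markers summed to at most 1.49 and 1.10 CPM. Endothelial markers summed to 1.65 to 4.39 CPM in control and 35.4 to 53.5 CPM in senescent libraries, mostly TIE1, platelet markers to at most 0.249 and 3.35 CPM, and muscle markers to at most 16.4 and 0.675 CPM. These markers move with senescence, and their part in the results was not tested. Replicate 3 of the control cells with DMSO stood apart: its χ2 per gene against its replicates was 98.85 and 50, and the other pairs within groups gave 4.888 to 25.55. Counts of subunits and lists that use it, and the calls of subunits that change without it, are given both ways. Shares over all genes come from the fit of all 18 libraries only.

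In RefSeq on GRCh38.p14, ITGA1 (chr5:52787916-52959209) and ITGA2 (chr5:52989352-53094779) are neighbours on the plus strand of chromosome 5. ITGA3 lies at chr17:50056110-50090481, ITGB3 at chr17:47253827-47313743, ITGAV at chr2:186590056-186680901 and ITGB8 at chr7:20329766-20415754, all on the plus strand. ITGA5 (chr12:54395261-54419266), ITGA11 (chr15:68296532-68432163), ITGB1 (chr10:32900318-32958230) and ITGB5 (chr3:124761948-124901418) are on the minus strand. Values are counts over whole genes. Of the exonic bases of ITGB3, 33.2% are shared with an annotated gene on the same strand, and ITGA1 shares 5.77% on the same and 8.06% on the opposite strand with PELO and its neighbours, so counts of these genes are less certain than those of the others, which share at most 2.75%.

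Promoter sequence is shown for ITGA5 and ITGB8, a pair that moved in opposite directions with senescence. Each window runs 5′ to 3′ on the gene's strand from 250 bases before to 10 bases after a RefSeq start. Capitals mark matches on either strand to the AP-1 motif TGANTCA, the TEAD motif GGAATG and the Sp1 motif GGGCGG.

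ITGA5: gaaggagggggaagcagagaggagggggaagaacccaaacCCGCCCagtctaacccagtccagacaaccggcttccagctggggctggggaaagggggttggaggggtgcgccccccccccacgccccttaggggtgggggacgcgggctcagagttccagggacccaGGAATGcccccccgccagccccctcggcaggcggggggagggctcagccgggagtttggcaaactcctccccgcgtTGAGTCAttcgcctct
ITGB8: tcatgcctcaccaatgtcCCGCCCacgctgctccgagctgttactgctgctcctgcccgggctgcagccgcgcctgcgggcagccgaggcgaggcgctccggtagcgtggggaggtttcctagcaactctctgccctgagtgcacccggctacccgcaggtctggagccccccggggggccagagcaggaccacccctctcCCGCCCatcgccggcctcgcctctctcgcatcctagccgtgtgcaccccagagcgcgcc

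The ITGA5 window is chr12:54419257-54419516 and has 69.2% GC. Its AP-1 match starts at −6, its TEAD match at −82 and its Sp1 match at −210 relative to the start. The ITGB8 window is chr7:20330650-20330909, has 71.5% GC and holds Sp1 matches at −232 and −49. This window lies within the gene span, which begins at 20329766, so its start is downstream of the gene's 5′ end. The ITGA5 start is at the 5′ end of its gene span, 54419266, so the windows differ in placement. Among 35116 windows of this length, 6.92% held the AP-1, 12.5% the TEAD and 43.1% the Sp1 motif. Of the 12 windows of the 8 members with an entry, the AP-1 motif was in that of ITGA5, the TEAD motif in windows of ITGA5 and ITGB1 and the Sp1 motif in 6, belonging to ITGA2, ITGA5, ITGB1, ITGB5 and ITGB8. A further 7 motifs were searched on both strands, and no motif searched contains another. Of these, SMAD (GTCTG) was in 6 member windows against 40.2% of all windows, while ETS (CCGGAAG) was in 1 against 9.12%, CCAAT in 1 against 32.7% and TATAAA in 1 against 10.9%. CRE (TGACGTCA), RUNX (TGTGGT) and the E-box (CACGTG) had no match in the member windows, against 1.8%, 11.4% and 6.6% of all. A match is a description of these letters and not a bound site.

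Per kilobase of transcript, ITGB1 was the most abundant integrin in control cells with DMSO at 330 CPM per kb. ITGB5 followed at 80.0, ITGA5 at 69.7, ITGAV at 37.6, ITGA2 at 22.4 and ITGA3 at 18.7 CPM per kb, and ITGB8 was the lowest of the 10 at 5.79 CPM per kb. In senescent cells with DMSO the order by level was ITGB1 at 851, ITGA5 at 293, ITGB5 at 229 and ITGA3 at 126 CPM per kb, with ITGAV at 30.5 and ITGB8 at 2.98 CPM per kb. ITGA3 was thus below ITGAV in control cells and above it in senescent cells, and ITGA5 was above ITGAV in both.

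**Figure D1:**
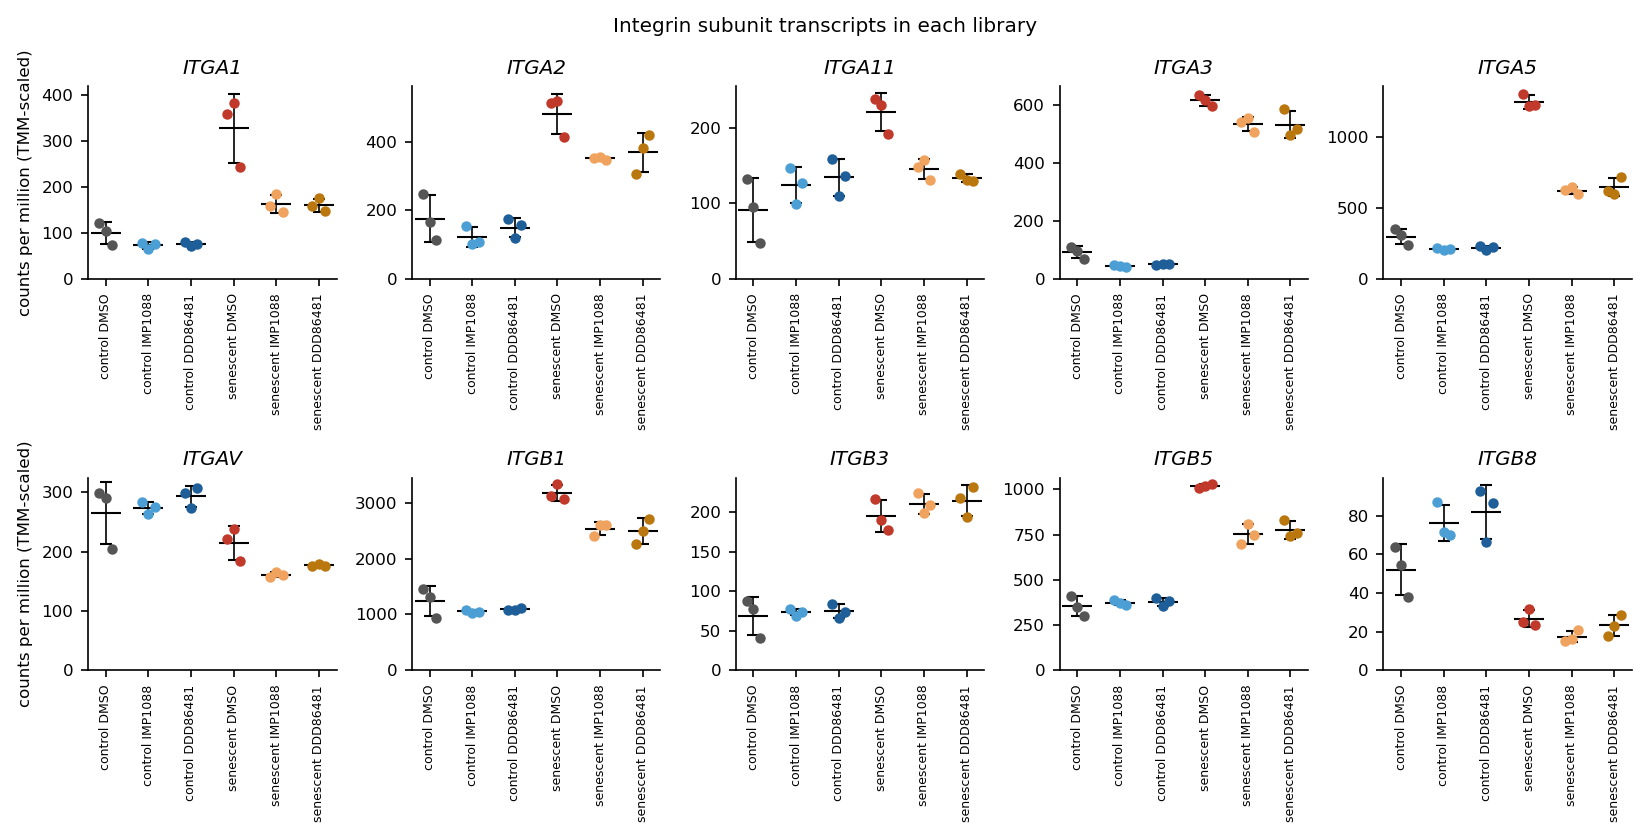
Level of each of the 10 integrin subunits in the 18 libraries, in TMM-scaled CPM on a linear axis that starts at 0, with a point for each library, a line for the mean of its group and bars for ± 1 SD (n = 3). For ITGA5 the 3 senescent DMSO libraries sit between 1213.9 and 1302.3 CPM, above every other library, and for ITGB8 all senescent libraries sit below the control libraries.

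Senescence was compared first, with DMSO in both states. Of the 10 subunits, 8 were higher and 2 lower in senescent cells (edgeR's quasi-likelihood test, Benjamini-Hochberg adjusted p under 0.05). The background is broad: 68.5% of all 14341 genes tested passed in either direction, 32.5% higher and 36% lower. The median log2 fold change was 1.48 over the subunits and −0.051 over all genes tested. In bulk RNA, fewer cells of a type and less RNA per cell cannot be told apart.

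The laminin-binding subunit ITGA3 showed the largest change of the 10. Its level was 108.42, 96.958 and 68.668 CPM in control and 635.11, 614.98 and 597.52 CPM in senescent libraries with DMSO. The groups lay far apart, and ITGA3 rose by 2.75 ± 0.13 on the log2 scale (SE, n = 3 per group, edgeR adjusted p = 1.06e-13), which is 6.74-fold.

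ITGA5, whose product with β1 is the fibronectin receptor, measured 346.75, 304.96 and 237.3 CPM in control and 1302.3, 1213.9 and 1222.7 CPM in senescent libraries. It rose by 2.07 ± 0.11 (edgeR adjusted p = 1.55e-12), or 4.2-fold, with no overlap between the groups. Its partner ITGB1, the most abundant subunit, went from 1452.1, 1317.4 and 930.85 CPM to 3122.8, 3333.2 and 3076.1 CPM. ITGB1 rose by 1.37 ± 0.12 (edgeR adjusted p = 3.48e-09), again without overlap.

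The 3 collagen-binding subunits rose as well. ITGA1 was at 121.4, 102.75 and 72.947 CPM in control and 357.56, 382.35 and 242.14 CPM in senescent libraries, a rise of 1.72 ± 0.17 (edgeR adjusted p = 1.29e-08). ITGA2 was at 249.09, 164.63 and 112.66 CPM against 513.31, 519.24 and 413.67 CPM, a rise of 1.46 ± 0.21 (edgeR adjusted p = 4.95e-06). For ITGA11 the libraries gave 132.08, 94.504 and 46.774 CPM against 239.16, 231.08 and 192.63 CPM, a rise of 1.28 ± 0.23 (edgeR adjusted p = 6.39e-05). None of these groups overlapped, but replicate 3 was the lowest library of its group for each of the 3 genes, in both states.

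The αV receptors did not move as a set. ITGB3 measured 87.948, 76.923 and 41.002 CPM in control and 216.81, 190.68 and 177.19 CPM in senescent libraries and rose by 1.50 ± 0.18 (edgeR adjusted p = 2.55e-07). ITGB5, the most abundant β partner of αV after β1, went from 412.74, 350.74 and 301.59 CPM to 1007.9, 1018.6 and 1029.5 CPM and rose by 1.52 ± 0.10 (edgeR adjusted p = 4.33e-11). Both were higher in every senescent library.

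ITGB8, the partner in the TGF-β-activating receptor, went the other way: 63.805, 54.474 and 37.718 CPM in control against 24.94, 31.748 and 23.461 CPM in senescent libraries. It fell by 0.96 ± 0.19 on the log2 scale (edgeR adjusted p = 0.000162), to 0.513 of its control level, without overlap. ITGAV itself was at 299.11, 290.39 and 204.21 CPM in control and 221.31, 238.86 and 183.9 CPM in senescent libraries, which overlap. Its change of −0.30 ± 0.12 passed the threshold (edgeR adjusted p = 0.0268) and was −0.46 (edgeR adjusted p = 0.000107) without control DMSO replicate 3. ITGAV missed the threshold in 3 of the 6 fits that left out 1 library, at −0.20 without control DMSO replicate 1, −0.26 without control DMSO replicate 2 and −0.20 without senescent DMSO replicate 3. The other 9 calls held in all 6 fits.

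**Figure D2:**
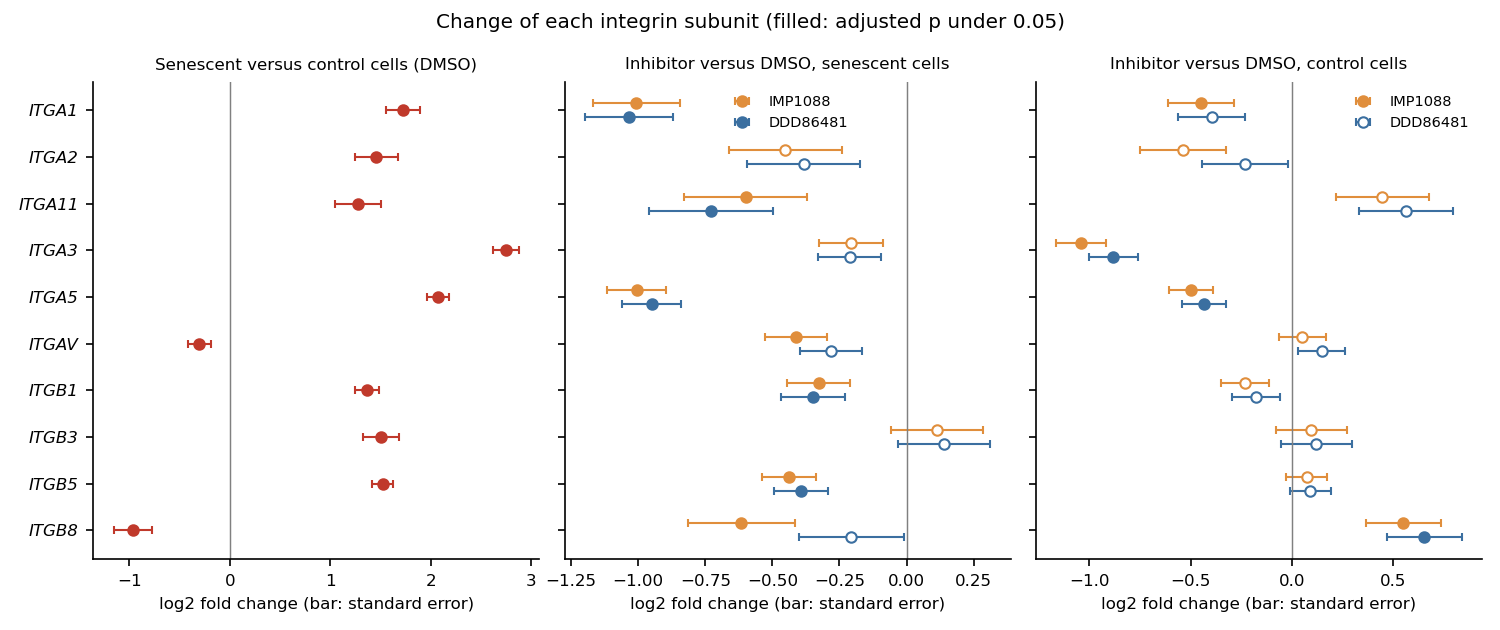
Log2 fold change of each integrin subunit from edgeR, for senescence (left), the inhibitors in senescent cells (middle) and the inhibitors in control cells (right), on x axes of different range, with bars for ± 1 SE, IMP1088 in orange, DDD86481 in blue, filled points past an adjusted p of 0.05 and open points not past it. The senescence effect of 8 subunits lies to the right of 0, between 1.28 and 2.75, and the effects of both inhibitors in senescent cells lie below 0 for all but ITGB3.

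Senescent cells were next compared with and without NMTi. IMP1088 lowered 7 of the 10 subunits and raised none, against 44.4% of all genes tested called in either direction, 20.6% higher and 23.9% lower. DDD86481 lowered 5 and raised none, against 43.2% called, 20.1% higher and 23.1% lower. The median log2 fold change of the subunits was −0.45 and −0.37, against −0.044 and −0.037 over all genes tested. The inhibitors were given at different doses and share the DMSO libraries as controls, so their values stand side by side and were not tested against each other.

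ITGA5 and ITGA1 had the largest falls. ITGA5 was at 621.16, 643.72 and 596.54 CPM with IMP1088 and 618.32, 599.89 and 718.04 CPM with DDD86481, below the lowest senescent DMSO library at 1213.9 CPM and above every control library. It fell by 1.01 ± 0.11 with IMP1088 (edgeR adjusted p = 3.97e-07) and by 0.95 ± 0.11 with DDD86481 (edgeR adjusted p = 8.67e-07). ITGA1, a collagen receptor subunit, was at 159.01, 183.89 and 145.69 CPM with IMP1088 and 157.46, 174.89 and 146.55 CPM with DDD86481. Both groups lay between the senescent and control DMSO groups without touching either, and ITGA1 fell by 1.01 ± 0.16 (edgeR adjusted p = 4.48e-05) and by 1.04 ± 0.16 (edgeR adjusted p = 3.55e-05).

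The other falls were smaller. ITGB5 was at 697.41, 808.21 and 748.61 CPM with IMP1088 and 829.34, 740.36 and 756.86 CPM with DDD86481, falls of 0.44 ± 0.10 (edgeR adjusted p = 0.00128) and 0.39 ± 0.10 (edgeR adjusted p = 0.00322), with no overlap with DMSO. ITGA11 fell by 0.60 ± 0.23 with IMP1088 (edgeR adjusted p = 0.0395), to 148.75, 157.34 and 131.39 CPM, and by 0.73 ± 0.23 with DDD86481 (edgeR adjusted p = 0.0146), to 139.61, 130.91 and 129.57 CPM. These ITGA11 levels overlap those of control cells with DMSO.

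ITGB1 fell by 0.33 ± 0.12 with IMP1088 (edgeR adjusted p = 0.0300) and by 0.35 ± 0.12 with DDD86481 (edgeR adjusted p = 0.0221). Its lowest senescent DMSO library, at 3076.1 CPM, was above the highest inhibitor library, at 2716.8 CPM. The ITGA11 and ITGB1 calls were near the threshold. With IMP1088 each missed it in 5 of the 6 fits without 1 library, at −0.69 to −0.53 and −0.35 to −0.29 over those fits. With DDD86481, ITGB1 missed it in 3 (without senescent DDD86481 replicate 1 at −0.28, without replicate 2 at −0.35 and without senescent DMSO replicate 2 at −0.31) and ITGA11 in 1, at −0.67 without senescent DMSO replicate 1.

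ITGAV and ITGB8 passed the threshold with IMP1088 and not with DDD86481. ITGAV was at 157.86, 166.06 and 159.93 CPM with IMP1088, a fall of 0.41 ± 0.12 (edgeR adjusted p = 0.00694), and at 175.75, 179.02 and 175.06 CPM with DDD86481, a difference of −0.28 ± 0.12 (edgeR adjusted p = 0.0577). Without senescent DMSO replicate 3, the lowest of its group, the latter was −0.38 (edgeR adjusted p = 0.0186). ITGB8 was at 15.207, 16.321 and 20.74 CPM with IMP1088, a fall of 0.62 ± 0.20 (edgeR adjusted p = 0.0158), and at 17.799, 22.984 and 28.759 CPM with DDD86481, a difference of −0.21 ± 0.20 (edgeR adjusted p = 0.420). The ITGB8 call was lost without senescent DMSO replicate 2, at −0.47, without senescent IMP1088 replicate 1, at −0.53, and without senescent IMP1088 replicate 2, at −0.57.

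ITGA2, ITGA3 and ITGB3 passed with neither inhibitor in the fit of all 6 groups. ITGA3 was at 540.45, 553.57 and 505.17 CPM with IMP1088 and 584.52, 494.37 and 515.75 CPM with DDD86481. Every inhibitor library was below the lowest senescent DMSO library, at 597.52 CPM. The difference from DMSO was small, at −0.21 ± 0.12 with each (edgeR adjusted p = 0.165 and 0.159). ITGA2 differed by −0.45 ± 0.21 and −0.38 ± 0.21 (edgeR adjusted p = 0.0875 and 0.151). The ITGA2 result depended on the setting: it passed for both inhibitors without the filter on low counts, at −0.46 (edgeR adjusted p = 0.00660) and −0.39 (edgeR adjusted p = 0.0246), and with only the groups compared, at −0.42 (edgeR adjusted p = 0.000107) and −0.35 (edgeR adjusted p = 0.0281). With only the groups compared, ITGA3 passed for IMP1088, at −0.17 (edgeR adjusted p = 0.0194). ITGB3 differed by 0.11 ± 0.17 with IMP1088 (95% interval −0.25 to 0.47, edgeR adjusted p = 0.627) and by 0.14 ± 0.17 with DDD86481 (95% interval −0.22 to 0.50, edgeR adjusted p = 0.542). The 3 senescent ITGB3 groups overlapped each other and all lay above the control groups.

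In control cells the inhibitors left most subunits short of the threshold. With IMP1088, 1 subunit was higher and 3 were lower, against 33.7% of all genes tested called, 16.3% higher and 17.4% lower. With DDD86481, 1 was higher and 2 were lower, against 36.6% called, 17.8% higher and 18.7% lower. The medians over the subunits were −0.090 and −0.043, against −0.0011 and 0 over all genes tested. Leaving out control DMSO replicate 3 gave 0 higher and 5 lower with IMP1088, and 1 higher and 4 lower with DDD86481. Over the fits that each left out 1 library, 3505 to 5892 and 3773 to 6317 of all genes passed. The counts without replicate 3 are thus not read against 33.7 and 36.6%. The 2 comparisons share their DMSO libraries.

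ITGA3 showed the clearest response, at 48.162, 43.557 and 41.624 CPM with IMP1088 and 46.751, 50.362 and 51.734 CPM with DDD86481, below the lowest control DMSO library at 68.668 CPM. It fell by 1.04 ± 0.12 (edgeR adjusted p = 2.93e-06) and 0.88 ± 0.12 (edgeR adjusted p = 1.77e-05). The values were −1.21 and −1.05 without control DMSO replicate 3. ITGA5, at 215.57, 202.42 and 211.91 CPM with IMP1088 and 227.75, 205.2 and 224.51 CPM with DDD86481, was also below all DMSO libraries and fell by 0.50 ± 0.11 (edgeR adjusted p = 0.00160) and 0.44 ± 0.11 (edgeR adjusted p = 0.00417).

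ITGB8 was the subunit that rose in control cells. It measured 86.992, 71.793 and 70.037 CPM with IMP1088 and 92.719, 66.272 and 86.691 CPM with DDD86481, all above the highest DMSO library at 63.805 CPM. It rose by 0.55 ± 0.18 (edgeR adjusted p = 0.0268) and 0.65 ± 0.19 (edgeR adjusted p = 0.00941). With its lowest library, control DMSO replicate 3, left out, the value was 0.37 (edgeR adjusted p = 0.112) with IMP1088 and 0.47 (edgeR adjusted p = 0.0404) with DDD86481. The call also ended without control IMP1088 replicate 1, at 0.45, and without control DDD86481 replicate 1, at 0.56.

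The collagen-binding subunits depended on the same DMSO library. ITGA1 fell by 0.45 ± 0.16 with IMP1088 (edgeR adjusted p = 0.0408), which missed the threshold in 5 of 6 fits that each left out a library (−0.63 to −0.28), and differed by −0.40 ± 0.16 with DDD86481 (edgeR adjusted p = 0.0639). These were, without control DMSO replicate 3, −0.63 (edgeR adjusted p = 0.00215) and −0.57 (edgeR adjusted p = 0.00443). ITGA11 was at 147.4, 99.45 and 126.43 CPM with IMP1088 and 158.67, 109.69 and 136.23 CPM with DDD86481, overlapping the wide DMSO range. Its differences were 0.45 ± 0.23 (edgeR adjusted p = 0.143) and 0.56 ± 0.23 (edgeR adjusted p = 0.0613), and without control DMSO replicate 3 they were 0.13 and 0.25. Without control DMSO replicate 1, its highest library, they were 0.81 (edgeR adjusted p = 0.00359) and 0.93 (edgeR adjusted p = 0.00111).

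ITGA2 differed by −0.54 ± 0.21 with IMP1088 (edgeR adjusted p = 0.0565). With the replicate number as a block, which the correlations between same-numbered libraries allow for this comparison, it was −0.52 (edgeR adjusted p = 0.0489), and without control DMSO replicate 3 it was −0.78 (edgeR adjusted p = 0.00220). ITGB1 differed by −0.23 ± 0.12 with IMP1088 and −0.18 ± 0.12 with DDD86481 (edgeR adjusted p = 0.143 and 0.255), and passed the threshold without that library, at −0.40 (edgeR adjusted p = 0.00123) and −0.34 (edgeR adjusted p = 0.00418). ITGAV, ITGB3 and ITGB5 differed by 0.051 to 0.15 and did not pass in either fit.

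The interaction term asked whether an inhibitor's effect differed between the states, as the effect in senescent minus that in control cells. For each inhibitor it passed for 6 of the 10 subunits, 1 positive and 5 negative, against 26.2% of all genes tested for IMP1088 (12.1% positive, 14.2% negative) and 30.3% for DDD86481 (14.4% positive, 15.9% negative). The medians were −0.49 and −0.46, against −0.0021 and −0.0060 over all genes. Without control DMSO replicate 3 the counts were 1 positive and 4 negative for each inhibitor. Over the fits that each left out 1 library, 2738 to 5242 and 3419 to 5796 of all genes passed.

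**Figure D3:**
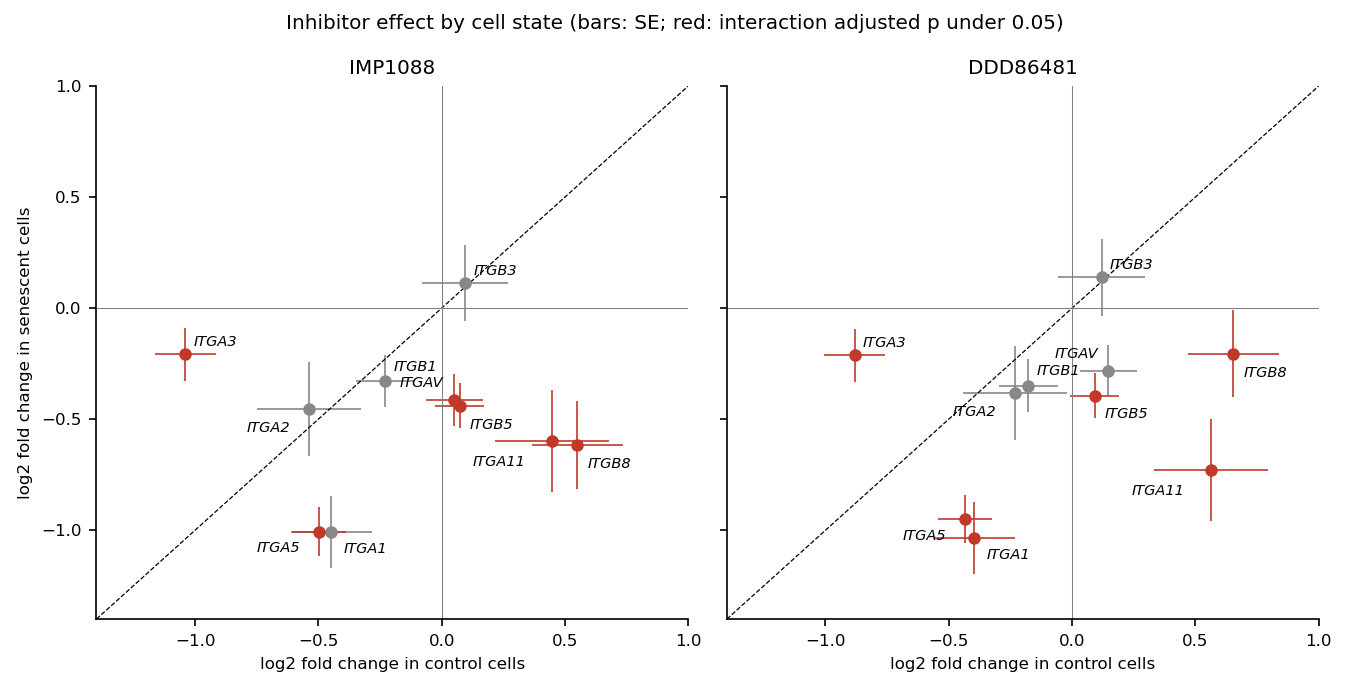
Log2 fold change with each inhibitor in control cells (x axis) against that in senescent cells (y axis), from edgeR, for the 10 subunits, with bars for ± 1 SE, a dashed diagonal where both are equal, and red points where the interaction term passed an adjusted p of 0.05. ITGA3 lies above the diagonal, with interaction terms of 0.83 and 0.67, and ITGA11 and ITGB8 lie furthest below it, at −0.86 to −1.29.

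ITGA3 was the positive one: it fell in control cells and was lower by less, short of the threshold, in senescent cells. The difference between the states was 0.83 ± 0.17 for IMP1088 (edgeR adjusted p = 0.00150) and 0.67 ± 0.17 for DDD86481 (edgeR adjusted p = 0.00662). ITGB8 differed by −1.17 ± 0.27 (edgeR adjusted p = 0.00389) and −0.86 ± 0.27 (edgeR adjusted p = 0.0214). ITGA11 differed by −1.05 ± 0.33 (edgeR adjusted p = 0.0229) and −1.29 ± 0.33 (edgeR adjusted p = 0.00614). Both had positive values in control and negative values in senescent cells, although not all of these passed on their own. Without control DMSO replicate 3, ITGB8 gave −0.98 and −0.68 and ITGA11 −0.73 and −0.98, all past the threshold.

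ITGA5 and ITGB5 differed by smaller amounts. ITGA5 gave −0.51 ± 0.15 for each inhibitor (edgeR adjusted p = 0.0199 for IMP1088 and 0.0169 for DDD86481), and ITGB5 gave −0.51 ± 0.14 (edgeR adjusted p = 0.0117) and −0.48 ± 0.14 (edgeR adjusted p = 0.0146). ITGAV passed for IMP1088 at −0.46 ± 0.16 (edgeR adjusted p = 0.0434) and ITGA1 for DDD86481 at −0.64 ± 0.23 (edgeR adjusted p = 0.0415), and each of these calls was lost in 9 of the 12 fits without 1 library. They were −0.31 (edgeR adjusted p = 0.0760) and −0.46 (edgeR adjusted p = 0.0872) without control DMSO replicate 3.

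Some of the firmer calls were also lost in fits that left out 1 library. For IMP1088, ITGA11 missed the threshold without control IMP1088 replicate 1 (−0.87), senescent DMSO replicate 1 (−0.99) or senescent IMP1088 replicate 3 (−0.98), and ITGA5 without control IMP1088 replicate 1 (−0.45) or senescent DMSO replicate 1 (−0.48). For DDD86481, ITGB8 missed it without control DDD86481 replicate 1 (−0.72), control DDD86481 replicate 3 (−0.78), senescent DDD86481 replicate 1 (−0.70) or senescent DMSO replicate 2 (−0.72), ITGA5 without control DDD86481 replicate 1 (−0.45) or replicate 3 (−0.46), and ITGB5 without control DDD86481 replicate 1 (−0.41). Fitting only the groups compared left 2 of the 6 calls for DDD86481, and ended those of ITGA5 (−0.47, edgeR adjusted p = 0.0727), ITGB5 (−0.44, edgeR adjusted p = 0.0589), ITGB8 (−0.82, edgeR adjusted p = 0.0527) and ITGA1 (−0.60, edgeR adjusted p = 0.0965). For IMP1088 it ended those of ITGA11 (−1.01, edgeR adjusted p = 0.0568) and ITGAV (−0.43, edgeR adjusted p = 0.105). With the replicate number as a block, ITGA1 also passed for IMP1088, at −0.57 (edgeR adjusted p = 0.0410), and ITGAV for DDD86481, at −0.44 (edgeR adjusted p = 0.0435). However, same-numbered libraries of control cells with DMSO and of the senescent groups correlated at only −0.292 to 0.109. ITGA3 kept its call in all of these fits.

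Shares within a library, computed per kilobase, do not depend on the scaling between libraries and are given as a description. Among the β subunits that pair with αV other than β1, namely ITGB3, ITGB5, ITGB6 and ITGB8, ITGB8 made up 5.90% ± 0.504 (SD, n = 3) in control cells with DMSO, 8.08% ± 0.602 with IMP1088 and 8.50% ± 0.845 with DDD86481. In senescent cells it made up 1.12% ± 0.186, 0.940% ± 0.157 and 1.22% ± 0.316. The highest senescent library, at 1.506%, was below the lowest control library, at 5.3182%. ITGB5 held 82.5% ± 3.00 of this sum in control and 86.5% ± 1.24 in senescent cells with DMSO. ITGB3 went from 12.4% ± 1.23 in senescent cells with DMSO to 17.2% ± 1.89 with IMP1088 and 16.9% ± 1.26 with DDD86481, where its own level had not changed past the threshold and that of ITGB5 had fallen.

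Among the collagen receptor α subunits ITGA1, ITGA2, ITGA10 and ITGA11, ITGA11 held 21.1% ± 3.06 in control cells with DMSO and 35.1% ± 1.71 and 33.3% ± 0.709 with IMP1088 and DDD86481. The inhibitor libraries, from 32.791% upward, lay above the 3 DMSO libraries at 22.873, 22.932 and 17.6%. In this ratio the replicate 3 library was the lowest of its group too. In senescent cells the ITGA11 share was 19.1% ± 0.928, 19.2% ± 0.896 and 17.5% ± 2.36. There the ITGA2 share was 54.2% with DMSO, 60.4% with IMP1088 and 62.4% with DDD86481, and that of ITGA1 was 26.6, 20.3 and 19.9%.

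The 12 α subunits that can pair with β1, summed per kilobase and divided by ITGB1, gave 0.567 ± 0.0163 in control and 0.699 ± 0.0381 in senescent cells with DMSO. With IMP1088 and DDD86481 the ratio was 0.504 ± 0.0275 and 0.524 ± 0.0382 in control and 0.537 ± 0.0337 and 0.558 ± 0.0441 in senescent cells. The 3 senescent DMSO libraries, at 0.74276, 0.67756 and 0.67601, were above the other 15. The sum takes in ITGAV, which also pairs with other β subunits.

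**Figure D4:**
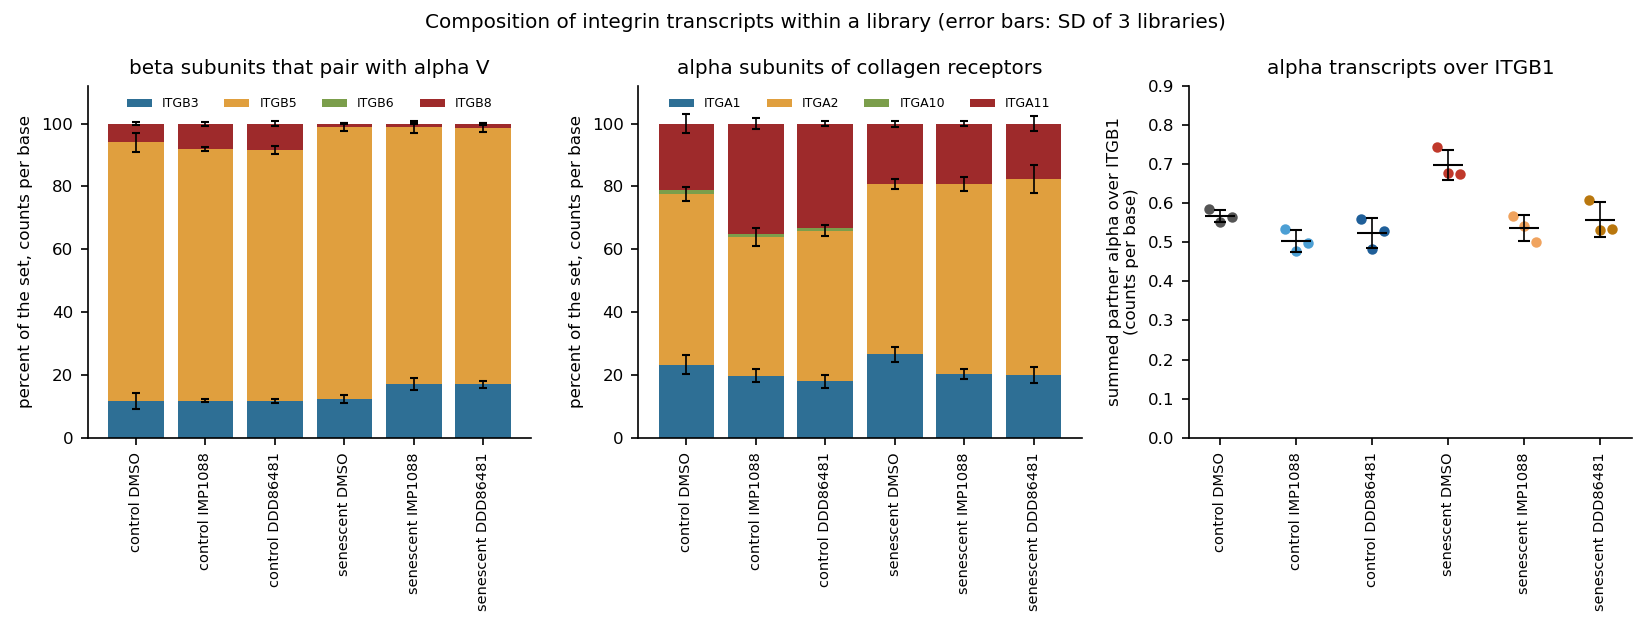
Mean shares, in percent of length-scaled counts within a library, of β subunits that pair with αV (left) and of collagen receptor α subunits (middle) as stacked bars with ± 1 SD (n = 3), and the ratio of the summed β1-partner α subunits to ITGB1 (right) with a point for each library, a line for the mean and bars for ± 1 SD. The ITGB8 segment is 5.90 to 8.50% in the control groups and 0.940 to 1.22% in the senescent groups.

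Of the 16 other integrin subunits, 9 passed the filter and 7 had at most 9 counts in any library. ITGA6, a laminin receptor subunit, rose with senescence by 1.00 ± 0.15 (edgeR adjusted p = 5.43e-06) and fell with IMP1088 by 1.88 ± 0.15 in senescent and 1.82 ± 0.16 in control cells, from 127 ± 17.7 to 34.5 ± 3.38 CPM and from 63.3 ± 15.98 to 17.9 ± 1.84 CPM. With DDD86481 it fell by 2.01 and 1.82, and its interaction terms of −0.057 and −0.19 did not pass (edgeR adjusted p = 0.869 and 0.527). These falls exceeded those of the 10 described subunits in the same comparisons.

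ITGAX, the α subunit of a leukocyte β2 integrin, had 2 counts in all in control DMSO libraries and 697 in senescent DMSO libraries, a count ratio of 482 (95% counting interval 133 to 3986), which covers counting error only. It rose further with IMP1088 by 1.03 ± 0.16 (edgeR adjusted p = 3.44e-05) and with DDD86481 by 0.98 ± 0.16 (edgeR adjusted p = 6.33e-05), from 13.9 CPM to 28.4 and 27.4 CPM. ITGB2, its only known β partner, had at most 9 counts in a library, and leukocyte markers summed to at most 1.10 CPM.

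In senescent cells ITGA8 fell from 5.91 ± 2.32 to 0.564 ± 0.246 CPM with IMP1088 and 0.561 ± 0.200 CPM with DDD86481, with interaction terms of −3.21 and −3.42. ITGA4 fell by 1.22 and 1.21 there, with interaction terms of −0.92 and −0.95, and ITGAE by 0.83 and 0.59. In control cells ITGAE fell by 0.97 and 1.08, from 28.9 to 14.7 and 13.7 CPM, and its interaction terms of 0.13 and 0.49 did not pass (edgeR adjusted p = 0.705 and 0.118). ITGA7 fell in control cells by 1.11 and 1.01, with interaction terms of 0.84 and 0.78. The other values of ITGA8, ITGA4, ITGAE and ITGA7 given here passed the threshold. ITGA9 rose with DDD86481 in control cells by 1.10 ± 0.41 (edgeR adjusted p = 0.0440), a call lost without control DMSO replicate 3 (0.98, edgeR adjusted p = 0.115). With senescence ITGAE fell by 0.70 and ITGA10 by 1.53, and ITGA9, at 9, 14 and 7 counts in control and 1, 0 and 0 counts in senescent DMSO libraries, is given by its counts. ITGB4 passed in no comparison. Of the 9 subunits, 2 were higher and 3 lower with senescence (55.6% called against 68.5% of all genes), 1 was higher and 4 were lower with each inhibitor in senescent cells (55.6% against 44.4 and 43.2%), 0 and 1 were higher and 3 and 3 lower in control cells (33.3 and 44.4% against 33.7 and 36.6%), and 1 interaction was positive and 2 were negative with each (33.3% against 26.2 and 30.3%). Leaving out control DMSO replicate 3 gave 2 higher and 4 lower with senescence and 0 higher and 4 and 5 lower in control cells, with the interaction counts the same.

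Partner genes were counted in 5 further lists. List counts without control DMSO replicate 3 come from another fit, whose share over all genes is not given. The share of all genes tested that passed in either direction, against which each list is read, was 68.5% with senescence, 44.4 and 43.2% with IMP1088 and DDD86481 in senescent cells, 33.7 and 36.6% in control cells, and 26.2 and 30.3% for the interactions. Of 27 matrix ligands, 5 were higher and 16 lower with senescence (4 and 16 without control DMSO replicate 3), with a median log2 fold change of −1.03 against −0.051 over all genes. That is 77.8% called, against 32.5% higher and 36% lower over all genes. In senescent cells 77.8 and 70.4% were called, in control cells 33.3 and 44.4%, and for the interactions 51.9 and 55.6%. The secreted phosphoprotein SPP1 rose by 4.46 ± 0.36 and the collagen VI chain COL6A2 by 1.27 ± 0.09, while vitronectin (VTN) had 11, 10 and 14 counts in control and 0 in each senescent DMSO library, and nephronectin (NPNT) had 2 counts in each control and 0 in each senescent DMSO library. In senescent cells IMP1088 raised 3 and lowered 18 ligands, and DDD86481 raised 3 and lowered 16. COL1A2 rose by 0.97 and 1.25 and SPP1 by 0.69 and 0.91, and the largest falls were those of thrombospondin THBS1 (−2.28 and −2.13) and COL3A1 (−2.07 and −1.67).

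In control cells more ligands rose than fell, with 7 higher and 2 lower with IMP1088 and 9 higher and 3 lower with DDD86481. Leaving out control DMSO replicate 3 gave 5 and 6, and 8 and 3, so for IMP1088 the larger side changed. The laminin chain LAMA2 rose by 0.74 and 0.93 in the fit of all 18 libraries. Its counts with DMSO were 1645, 1203 and 499, the last in replicate 3. NPNT went from 2 counts per library to 6 to 15 with IMP1088 and 12 to 21 with DDD86481, and periostin (POSTN) fell by 1.06 and 1.09. CCN2 fell with IMP1088 by 0.70, and VTN with DDD86481 from 11, 10 and 14 counts to 4, 2 and 4. The interaction term passed for 14 ligands as negative with each inhibitor, also without that library, led by COL3A1 at −2.63 and −2.27 with COL1A1 (−2.14) for IMP1088 and THBS1 (−1.80) for DDD86481, and for COL1A2 as positive with DDD86481 (0.73).

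Of 34 tested cytoplasmic adaptors, the proteins that link integrin tails to actin and signalling, 14 were higher and 12 lower with senescence (13 and 13 without control DMSO replicate 3), or 76.5% called against 68.5% of all genes. In senescent cells 64.7 and 55.9% were called, against 44.4 and 43.2%. The kindlins FERMT3 and FERMT1 rose by 2.44 ± 0.18 and 2.21 ± 0.18, and the PINCH protein LIMS2 and testin (TES) fell by 4.57 ± 0.21 and 2.91 ± 0.12. NMTi lowered adaptors in senescent cells, 22 with IMP1088 and 19 with DDD86481, and raised none, with medians of −0.52 and −0.45. NEDD9, a scaffold of the CAS family, had the largest fall at −3.62 ± 0.53 and −3.27 ± 0.51, from 83, 141 and 83 counts to 3 to 19 counts in a library, and FERMT1 fell by 1.51 and 1.71.

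In control cells 14 and 13 adaptors were lower and 1 higher (ARHGEF7, 0.33 and 0.39), with LIMS2 at −1.78 and −1.83, FERMT1 at −0.95 with IMP1088 and NEDD9 at −0.79 with DDD86481. The interaction term was negative for 11 and 13 adaptors, with NEDD9 at −2.84 and −2.47 and TLN2, a talin, at −1.51 and −1.66, and positive for 2 with each, LIMS2 (1.45 and 1.18) and TES (0.67 and 0.63). LIMS2 was low in senescent cells, at 14, 18 and 11 counts with DMSO. It had 11, 10 and 16 counts there with IMP1088 and 12, 7 and 10 with DDD86481. The share called was 44.1 and 41.2% in control cells and 38.2 and 44.1% for the interactions, against 33.7 and 36.6% and 26.2 and 30.3% of all genes. Leaving out control DMSO replicate 3 gave 16 and 15 lower and 0 and 1 higher in control cells, and 8 and 9 negative and 2 and 2 positive interactions.

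**Figure D5:**
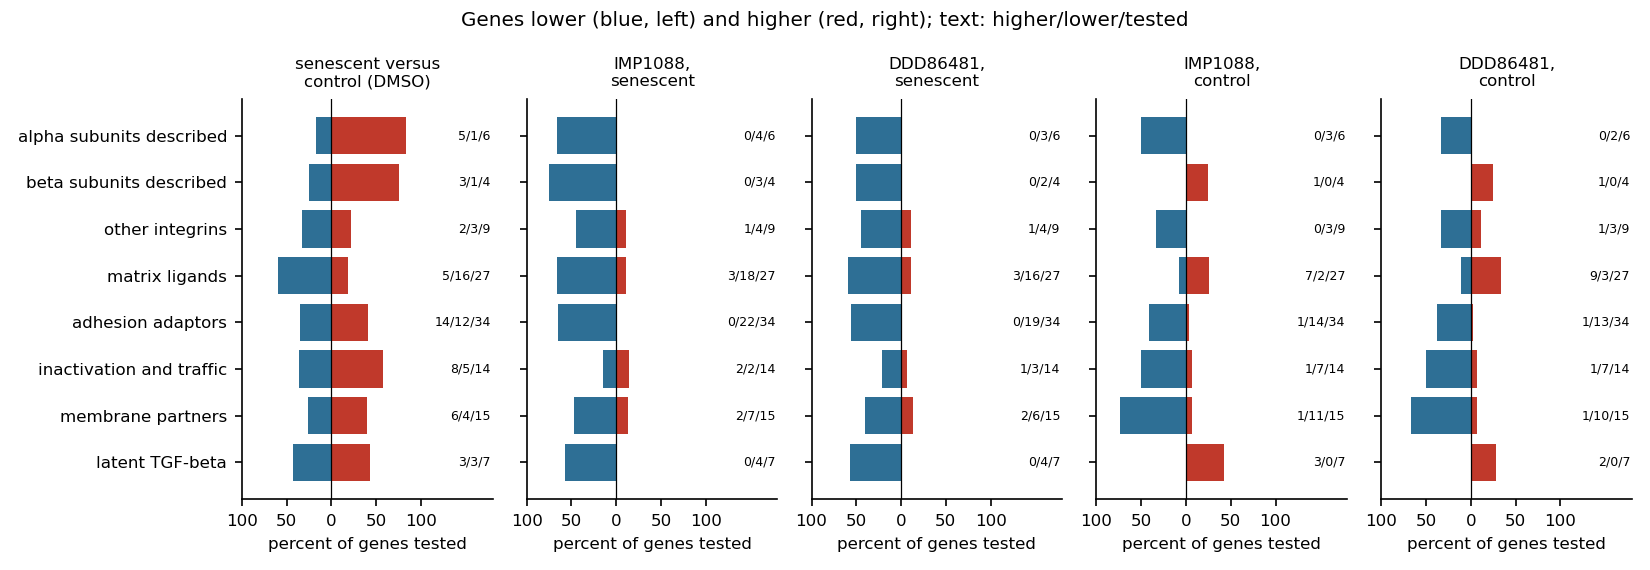
Percent of the genes tested in each list that were lower (blue, to the left) or higher (red, to the right) past an adjusted p of 0.05 with edgeR, in the 5 comparisons, with the numbers higher, lower and tested beside each bar. Of 34 adaptors, 14 were higher and 12 lower with senescence, and none was higher and 22 and 19 were lower with IMP1088 and DDD86481 in senescent cells.

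Of 14 tested regulators of integrin inactivation and traffic, 8 were higher and 5 lower with senescence, led by NUMB (2.16) and EHD1 (1.11), and by DAB2 (−0.67) and RAB11FIP1 (−0.63). That is 92.9% called against 68.5% of all genes, while in senescent cells 28.6% were called with each inhibitor against 44.4 and 43.2%. In senescent cells 2 were higher and 2 lower with IMP1088 (RAB5A 0.36 and EHD1 0.36, and STX6 −0.85 and ARF6 −0.26), and 1 was higher and 3 lower with DDD86481 (EHD1 0.39, and STX6 −0.77 and RAB11FIP1 −0.51 among the lower). STX6 is a syntaxin of the trans-Golgi and endosomes. In control cells 7 were lower and 1 higher with each inhibitor, with ITGB1BP1, which holds β1 inactive, at −0.80 and −0.89, RAB11FIP1 at −0.71 and −0.61 and clathrin heavy chain (CLTC) at 0.40 and 0.48. Interaction terms were positive for 2 and 4 and negative for 1 and 2, with EHD1 at 0.68 and 0.71, ITGB1BP1 at 0.56 and 0.70, STX6 at −0.48 and −0.45, and NUMB at −0.48 for DDD86481. The share called was 57.1% in control cells with each inhibitor and 21.4 and 42.9% for the interactions, against 33.7 and 36.6% and 26.2 and 30.3% of all genes. Without control DMSO replicate 3 the senescence counts were the same, 5 and 6 were lower and 0 and 1 higher in control cells, and interactions were positive for 3 and 2 and negative for 1 and 2.

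Of 15 membrane partners, 6 were higher and 4 lower with senescence (8 and 4 without control DMSO replicate 3), or 66.7% called, near the 68.5% of all genes. The urokinase receptor PLAUR rose by 3.07 ± 0.11 and the tetraspanin CD9 by 2.78 ± 0.11, while caveolin CAV1 fell by 2.75 ± 0.12 and syndecan SDC4 by 2.22 ± 0.15. CAV1 fell with IMP1088 and DDD86481 in senescent cells (−1.82 and −1.83) and in control cells (−1.75 and −1.77). In senescent cells 2 rose with each inhibitor, SLC3A2 (0.59 and 0.70) and SDC4 (0.58 and 0.76), and 7 and 6 fell, with SDC1 at −0.42 for IMP1088 and LGALS3 at −0.55 for DDD86481. In control cells 11 and 10 fell, with PLAUR at −1.06 for IMP1088 and LGALS1 at −1.02 for DDD86481, and SLC3A2 alone rose (0.56 and 0.52). The interaction was positive for 3 and 5 and negative for none, led by SDC4 (1.17 and 1.43) and PLAUR (0.96 and 0.91). The share called was 60 and 53.3% in senescent cells, 80 and 73.3% in control cells and 20 and 33.3% for the interactions, against 44.4 and 43.2%, 33.7 and 36.6%, and 26.2 and 30.3% of all genes. With control DMSO replicate 3 left out, 8 and 9 were lower and 2 and 2 higher in control cells, and 2 and 4 interactions were positive.

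Of 7 genes for TGF-β and proteins that bind its latent form, 3 were higher and 3 lower with senescence, with and without control DMSO replicate 3, or 85.7% called against 68.5% of all genes. NRROS rose by 4.34 ± 0.25 and TGFB1 by 1.27 ± 0.09, and TGFB3 fell by 4.07 ± 0.24 and LTBP1 by 0.92 ± 0.13. In senescent cells 4 were lower with each inhibitor and none higher. LRRC32, which anchors latent TGF-β at the cell surface, fell by 1.39 and 1.53, TGFB2 by 0.79 with IMP1088 and LTBP1 by 0.70 with DDD86481. In control cells 3 and 2 were higher and none lower, with LRRC32 at 0.51 and 0.55, NRROS at 0.99 for IMP1088 and TGFB2 at 0.55 for DDD86481. Leaving out control DMSO replicate 3 gave 1 higher and 1 lower with IMP1088 and 2 higher and 1 lower with DDD86481, with LRRC32 still past the threshold at 0.36 and 0.40 and NRROS not, at 0.83 (edgeR adjusted p = 0.0806). The interaction was negative for 4 and 3, with LRRC32 at −1.90 and −2.08, NRROS at −1.32 for IMP1088 and TGFB2 at −1.11 for DDD86481. These interaction counts were the same without that library. The share called was 57.1% with each inhibitor in senescent cells, 42.9 and 28.6% in control cells and 57.1 and 42.9% for the interactions, against 44.4 and 43.2%, 33.7 and 36.6%, and 26.2 and 30.3% of all genes.

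Likeness of pattern was measured as Pearson's r of log2 CPM over 18 libraries after the mean of each state was taken away, as a description over libraries that share treatment groups and a library that stands apart. ITGA5 was most like ADAM19 (r = 0.987) and ELFN2 (0.981), ITGA1 like SCUBE3 (0.953) and MTMR2 (0.946), ITGA2 like SLC9A7 (0.920) and NUP205 (0.908), ITGA3 like NIPAL3 (0.941) and NT5E (0.940), and ITGA11 like FBXO38 (0.959) and WDFY2 (0.952). ITGAV was most like MAN1A1 (0.939) and FBN1 (0.934), ITGB1 like SAMD9L (0.955) and SCN8A (0.945), ITGB3 like IPO7 (0.917) and HEATR5B (0.886), ITGB5 like TBL1X (0.951) and SNED1 (0.951), and ITGB8 like ZFHX3 (0.957) and PBRM1 (0.947). With the state means kept, r was 0.998 for ITGA5 with ADAM19 and 0.991 for ITGB8 with ZFHX3, but −0.241 for ITGB1 with SAMD9L and −0.225 for ITGB5 with TBL1X. Among the subunits the closest pair within states was ITGA1 with ITGA5 (0.920), followed by ITGA5 with its partner ITGB1 (0.856), and the lowest value was that of ITGA3 with ITGB8 (−0.345).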

How the data were processed

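The 18 poly(A) RNA libraries share 1 table of unnormalized read counts by gene symbol, deposited by the authors, in which the DDD86481 libraries are named PCLX001. The submitters' processing notes name DRAGEN, STAR 2.7.8a, DESeq2 1.32.0 and hg38, while the study's methods name TopHat, hg19, Ensembl annotation and directional libraries. The counter's strand setting and its annotation are not given in the sources used here, so reads of overlapping genes cannot be assigned with certainty. Positions and promoters came from RefSeq GRCh38.p14, and canonical transcript lengths and exon overlaps from GENCODE on GRCh37.

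Of 28266 rows, 6836 held no count. filterByExpr in edgeR 4.0.16 (R 4.3.3, limma 3.58.1) kept 14341 genes with 99.962% of counts. After TMM scaling, edgeR's quasi-likelihood test was run on a single model of 18 libraries in 6 groups, with Benjamini-Hochberg adjustment over all genes tested and a threshold of 0.05. SE is the log2 fold change over the square root of F, and log2 CPM used a prior count of 2. The floor of 3 counts per library came to 0.121 to 0.187 CPM. Floors and the interval of the ITGAX count ratio cover counting error only. The intervals of the ITGB3 fold changes come from the edgeR fit and its SE, which take in the spread between libraries. Script output was checked on simulated counts. Alternatives were DESeq2 1.42.0, RLE and upper quartile scaling, no filter, only the groups compared, the replicate number as a block, leaving out each library, and counts without length or with exon-union length for shares, the last chosen after seeing the data. Python 3.11.15, numpy 2.4.6, pandas 2.3.3, scipy 1.17.1 and matplotlib 3.10.9 were also used.

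The subunits and gene lists (other integrins, ligands, adaptors, inactivation and traffic, membrane partners, latent TGF-β, cell type markers) were chosen with earlier results of these data known. All 10 subunits are named, and from each other list up to 2 genes with the largest rise and 2 with the largest fall past the threshold. For each subunit, the 2 most similar genes outside the family are named. Same-numbered libraries of control cells with DMSO and IMP1088 deviated together (r = 0.394, 0.123 and 0.231, each over 0.1), so the blocked value is given there where it changes a call. The pairing comes from these correlations alone.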

Additional observations from a re-analysis of the deposited data

Results flagged for a closer look

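The interaction term, which tests whether an inhibitor's effect differed between senescent and control cells, passed for 12 pairs of subunit and inhibitor. For IMP1088 the difference was 0.83 for ITGA3, −0.46 for ITGAV, −0.51 for ITGA5, −0.51 for ITGB5, −1.05 for ITGA11 and −1.17 for ITGB8. For DDD86481 it was 0.67 for ITGA3, −0.48 for ITGB5, −0.51 for ITGA5, −0.64 for ITGA1, −0.86 for ITGB8 and −1.29 for ITGA11. No test for single outlying samples was run within groups of 3 libraries. The χ2 per gene that set control DMSO replicate 3 apart is a description.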

How the results depend on the processing

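Of the 70 fold changes of subunits, RLE scaling left all 70 on the same side of the threshold and DESeq2 68, with 2 newly past it. Scaling by the upper quartile moved the median change with senescence over all genes by −0.155 and turned no subunit. It ended 2 calls, the interaction of ITGAV with IMP1088 (−0.41) and of ITGA1 with DDD86481 (−0.59). It also added 3 calls. They were ITGAV with DDD86481 in senescent cells (−0.30, edgeR adjusted p = 0.0426), and in control cells ITGA2 with IMP1088 (−0.59, edgeR adjusted p = 0.0336) and ITGA1 with DDD86481 (−0.46, edgeR adjusted p = 0.0341). Fitting only the groups compared gave 2 subunits in place of 4 for IMP1088 in control cells and 2 in place of 6 for the interaction of DDD86481, with 2716 and 2842 genes past the threshold for IMP1088 and DDD86481 in control cells. The calls it ended outside the interactions were ITGAV with senescence (−0.28, edgeR adjusted p = 0.165), ITGA1 (−0.45, edgeR adjusted p = 0.117) and ITGB8 (0.55, edgeR adjusted p = 0.0725) with IMP1088 in control cells, and ITGA5 with DDD86481 in control cells (−0.44, edgeR adjusted p = 0.0607). Without the filter, and with the replicate number as a block, DDD86481 in control cells called 5 subunits in place of 3. The block added ITGA1 (−0.37, edgeR adjusted p = 0.0465) and ITGA11 (0.61, edgeR adjusted p = 0.0250), though same-numbered libraries of these groups correlated at only 0.160, 0.093 and 0.019. The block ended no call of a subunit. Leaving out 1 library gave 9 to 10 subunits (9239 to 10027 genes) for senescence, 4 to 7 (5454 to 5617) for IMP1088 and 4 to 6 (5282 to 5812) for DDD86481 in senescent cells, 3 to 5 (3505 to 5892) and 2 to 5 (3773 to 6317) in control cells, and 3 to 7 (2738 to 5242) and 2 to 7 (3419 to 5796) for the interactions. Signs turned in 21 of these fits, none of a called value: with IMP1088 in control cells for ITGAV (−0.10 to 0.15), ITGB3 (−0.17 to 0.31) and ITGB5 (−0.032 to 0.20), with DDD86481 in control cells for ITGA2 (−0.47 to 0.11), ITGAV (−0.0083 to 0.25), ITGB3 (−0.14 to 0.34) and ITGB5 (−0.014 to 0.21), in the IMP1088 interaction for ITGA2 (−0.25 to 0.34), ITGB1 (−0.23 to 0.070) and ITGB3 (−0.20 to 0.28), and in the DDD86481 interaction for ITGA2 (−0.49 to 0.085) and ITGB3 (−0.20 to 0.28). From counts not divided by length, by construction, the ITGB8 share was 10.8, 14.5 and 15.2% in control and 2.15, 1.78 and 2.30% in senescent cells (DMSO, IMP1088, DDD86481), that of ITGA11 38.9 and 37.2% with the inhibitors in control and 21.5, 22.0 and 20.2% in senescent cells, and the ratio to ITGB1 0.919, 0.861, 0.902, 1.03, 0.805 and 0.835 in the same order. With exon-union lengths the ITGB8 share was 5.00, 6.87 and 7.23% in control and 0.781% in senescent cells with IMP1088, that of ITGA11 37.0 and 34.8% with the inhibitors in control and 20.6% in senescent cells with DMSO, and the ratio 1.35, 1.17, 1.24, 1.68, 1.28 and 1.3232. The order of the states for ITGB8 was the same with each length. Apart from the smaller fits and the change of length, the cause of these differences was not tested.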
